A study of Canis lupus familiaris with 13 samples.

Results

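The collagen genes are described here in skeletal muscle of the dog. A gene was counted as a collagen gene where the deposited table gave it as protein coding and its symbol was COL, a number, the letter A and a number. Among 30951 genes 42 met this rule, and 31 of them passed the filter on low counts, which left 14629 genes of all kinds for testing. RNA sequencing was done on biopsies of the biceps femoris, a thigh muscle, from 4 wild-type dogs aged 9 to 10 months. The insulin group held 10 libraries, which were sample 1 and sample 2 of dogs 1, 2, 3 and 4 and sample 3 of dogs 1 and 2. The basal group held 3 libraries, which were sample 0 of dogs 2, 3 and 4. The labels do not state what the sample number stands for, or whether the libraries of a dog came from separate biopsies, so the p-values measure the spread between these libraries.

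Collagens are matrix proteins whose chains wind into triple helices. Fibrillar collagens such as types I, III and V build the fibres of the connective tissue between muscle fibres, type VI forms fine filaments at the muscle fibre surface, and type IV forms the sheet of the basement membrane around muscle fibres and capillaries. Fibroblasts make most fibrillar collagen in muscle, while endothelial cells and muscle fibres also make type IV. In a bulk biopsy, fewer cells of a type and less RNA per cell cannot be told apart.

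Libraries held from 45200416 to 81948641 counts, and between 10.4% and 18.4% of them came from ACTA1, the actin of skeletal muscle. Levels are given as CPM, the count of a gene scaled to the adjusted library total, and are compared between libraries, not between genes, since no transcript lengths were used. The basal library of dog 3 (sample 0) stood apart in its collagen counts. Collagen genes took 0.264% of its counts (95% Wilson interval 0.263% to 0.266%). In the insulin libraries the share ran from 0.0179% (0.0175% to 0.0182%) in dog 4 sample 1 to 0.0899% (0.0892% to 0.0906%) in dog 2 sample 1, with a median of 0.0510%. In the other basal libraries it was 0.0433% in dog 2 (0.0428% to 0.0438%) and 0.0130% in dog 4 (0.0126% to 0.0133%). These intervals cover counting error only. The highest basal share was 20.4-fold the lowest, while the insulin libraries spanned 5.03-fold, and all 10 insulin libraries lay between the basal libraries of dogs 4 and 3.

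**Figure D1:**
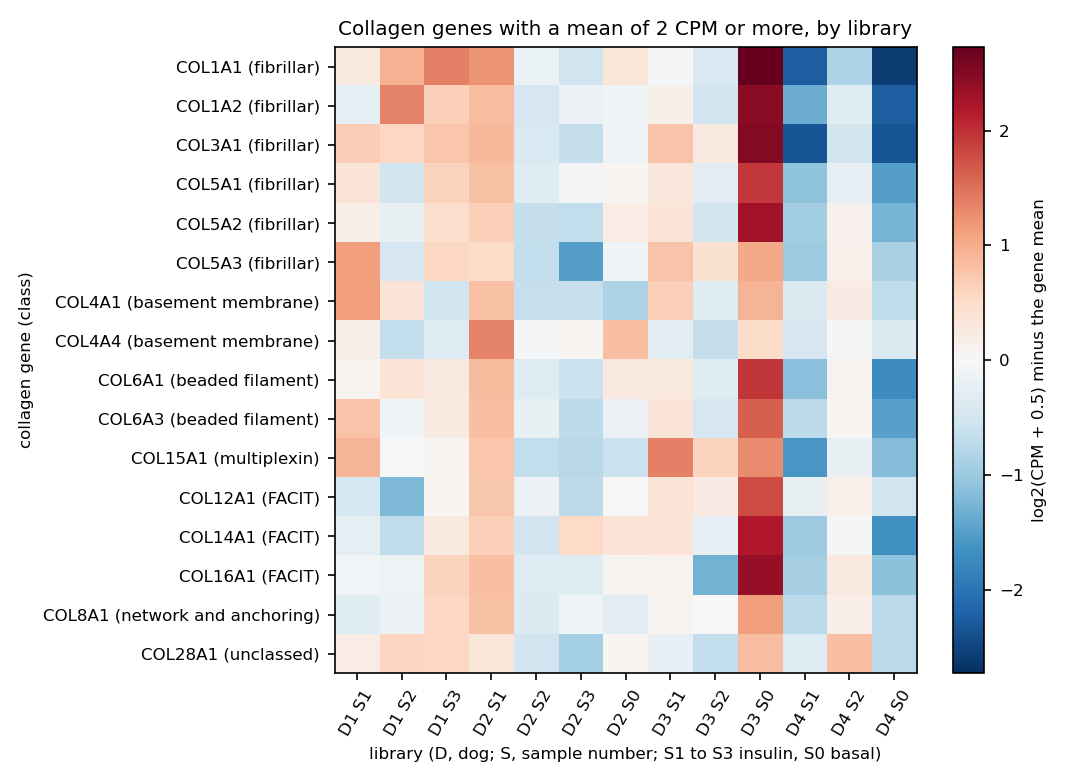
Heat map of the 16 collagen genes with a mean of 2 CPM or more (rows, with their class) in the 13 libraries (columns, D for dog and S for sample number, insulin libraries S1 to S3 left of the basal library S0 of the same dog). Colour gives log2(CPM + 0.5) minus the mean of the gene, and the column of dog 3 sample 0 holds the highest value of 12 of the 16 genes.

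The 16 collagen genes with a mean of at least 2 CPM, a limit chosen after the values were seen, were high and low in much the same libraries. Dog 3 sample 0 was the highest of the 13 libraries for 12 of the 16 (75.0%), beside 12.02% of the 9242 genes at that level. Dog 4 sample 0 was the lowest library for 7 of the 16 (43.8%), beside 6.37% of those genes. The mean behind the limit included dog 3 sample 0. COL12A1, with a mean of 2.26 CPM, averaged 1.85 CPM in the insulin libraries and reached 7.75 CPM in dog 3 sample 0. Over the 31 collagen genes tested, without this limit, dog 3 sample 0 was the highest library for 17 (54.8%), beside 15.7% of all genes tested. The standard deviation (SD) of log2(CPM + 0.5) over the 13 libraries had a median of 0.88 for the 16 collagen genes, from 0.56 for COL8A1 to 1.44 for COL1A1, and of 0.32 for the 9242 genes. The heat map of the collagen genes shows this as a dark column for dog 3 sample 0 and a mostly blue one for dog 4 sample 0.

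Type I collagen is the main fibril of muscle connective tissue and is built from the chains of COL1A1 and COL1A2. COL1A1 ranged from 6.64 to 88.2 CPM in the insulin libraries with a median of 31.2 CPM, against 42.6 CPM in dog 2, 225 CPM in dog 3 and 5.15 CPM in dog 4 among the basal libraries. COL1A2 ranged from 62.0 to 410.0 CPM in the insulin libraries with a median of 139 CPM, against 148, 879.9 and 33.4 CPM in the basal libraries of dogs 2, 3 and 4. For both genes all 10 insulin libraries fell between the lowest and the highest basal library, so the groups overlapped fully. The highest insulin level of COL1A2 was dog 1 sample 2, the library in which ACTA1 also took its highest share.

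COL3A1, the chain of type III collagen in fine reticular fibrils, ranged from 17.3 to 169 CPM in the insulin libraries with a median of 121 CPM, against 84.9, 517 and 17.3 CPM in the basal libraries of dogs 2, 3 and 4. Its lowest insulin library, dog 4 sample 1, was at nearly the same level as the basal library of that dog. Type V collagen is a minor component inside type I fibrils and sets their diameter. COL5A1 lay between 0.945 and 4.94 CPM in the insulin libraries with a median of 2.35 CPM, against 2.70, 11.3 and 0.600 CPM in the basal libraries of dogs 2, 3 and 4. COL5A2 lay between 7.11 and 22.3 CPM in the insulin libraries with a median of 13.7 CPM, against 16.3, 70.9 and 5.54 CPM in those basal libraries. Both type V genes therefore had the same order of basal libraries as type I, with dog 3 highest and dog 4 lowest. COL5A3, the remaining type V chain, differed from them, since its highest library was an insulin one. It lay between 2.22 and 16.7 CPM in the insulin libraries with a median of 8.96 CPM, against 6.62, 15.4 and 3.67 CPM in the basal libraries of dogs 2, 3 and 4.

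The other fibrillar genes that passed the filter had low levels. COL2A1 and COL11A2, chains of cartilage fibrils, reached at most 1.32 and 0.622 CPM in any library. COL24A1 and COL27A1, minor fibrillar collagens known mainly from bone and cartilage, reached at most 1.31 and 0.753 CPM. COL2A1 was highest in dog 2, with 0.588, 1.28 and 0.0685 CPM in insulin samples 1, 2 and 3 and 1.32 CPM in the basal library. It was at 0.157 CPM or less in dogs 3 and 4.

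**Figure D2:**
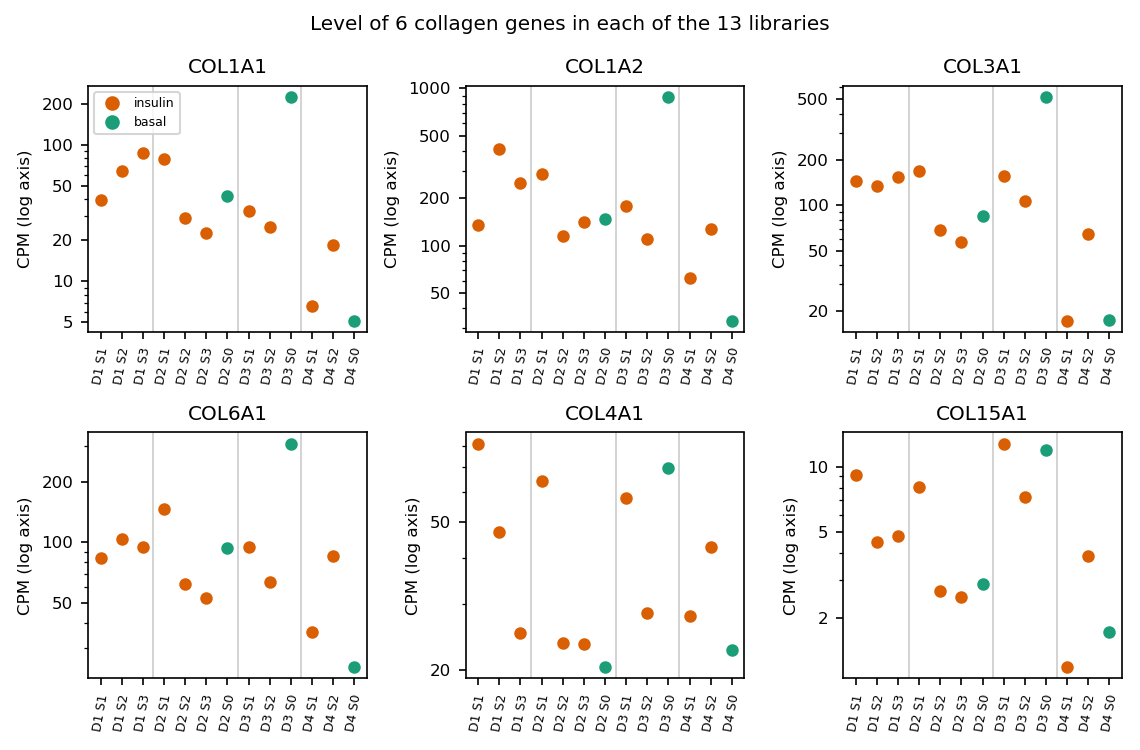
Level of COL1A1, COL1A2, COL3A1, COL6A1, COL4A1 and COL15A1 in each of the 13 libraries, in CPM on a log axis, with insulin libraries in orange, basal libraries in green and grey lines between dogs. Dog 3 sample 0 is the top point for COL1A1, COL1A2, COL3A1 and COL6A1, while COL4A1 peaks at 81.1 CPM in dog 1 sample 1 and COL15A1 at 12.7 CPM in dog 3 sample 1.

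Type VI collagen forms beaded filaments that tie the basement membrane of the muscle fibre to the surrounding matrix, and in humans its loss causes muscular dystrophy. COL6A1 ranged from 36.0 to 146 CPM in the insulin libraries with a median of 84.7 CPM, against 94.3, 309 and 24.0 CPM in the basal libraries of dogs 2, 3 and 4. COL6A3 ranged from 8.26 to 25.0 CPM in the insulin libraries with a median of 13.6 CPM, against 12.4, 43.9 and 4.64 CPM in those basal libraries. Both genes thus had every insulin library between the basal libraries of dogs 4 and 3. COL6A6, a further type VI chain, lay between 0.331 and 1.03 CPM in the insulin libraries, against 0.0785, 1.93 and 0.231 CPM in the basal libraries of dogs 2, 3 and 4.

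COL4A1 and COL4A2 encode the chains of the type IV network found in nearly every basement membrane. COL4A1 stood at 81.1, 46.9 and 25.1 CPM in samples 1, 2 and 3 of dog 1, all insulin. In dog 2 it stood at 64.5, 23.7 and 23.5 CPM in insulin samples 1, 2 and 3, against 20.4 CPM in the basal library. In dog 3 it stood at 57.8 and 28.5 CPM in insulin samples 1 and 2, against 70.0 CPM in the basal library, and in dog 4 at 28.0 and 42.8 CPM, against 22.6 CPM. Sample 1 was therefore the highest insulin library of COL4A1 in dogs 1, 2 and 3, and sample 2 was in dog 4. COL4A2 ranged from 0.813 to 3.46 CPM in the insulin libraries with a median of 1.55 CPM, against 1.16, 4.46 and 1.18 CPM in the basal libraries of dogs 2, 3 and 4. The gene models of COL4A1 and COL4A2 overlap in the RefSeq annotation of a newer dog assembly, and the SMART-Seq kit keeps no strand, so reads in the overlap could have been given to either gene.

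COL4A3, COL4A4 and COL4A5 encode the type IV chains best known from the kidney filter, where human mutations cause Alport syndrome. COL4A4 ranged from 0.978 to 5.57 CPM in the insulin libraries with a median of 1.59 CPM, against 3.72, 2.88 and 1.29 CPM in the basal libraries of dogs 2, 3 and 4. Its highest library was dog 2 sample 1, more than any basal library. COL4A3 stayed at or below 1.27 CPM in all 13 libraries, COL4A5 at or below 1.17 CPM, and COL4A6 at or below 0.347 CPM. COL15A1, a multiplexin of the outer face of the basement membrane whose loss in mice causes a mild myopathy, ranged from 1.19 to 12.7 CPM in the insulin libraries with a median of 4.65 CPM. Its basal libraries were at 2.87, 11.97 and 1.73 CPM in dogs 2, 3 and 4, so insulin libraries lay both above and below all basal ones.

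The fibril-associated collagens (FACIT) bind to the surface of fibrils. COL12A1, whose mutations in humans cause a myopathy, lay between 0.527 and 3.53 CPM in the insulin libraries with a median of 1.83 CPM, against 1.90, 7.75 and 1.15 CPM in the basal libraries of dogs 2, 3 and 4. COL14A1 lay between 3.105 and 10.8 CPM in the insulin libraries with a median of 6.13 CPM, against 8.89, 32.4 and 1.78 CPM in those basal libraries. COL16A1 lay between 0.855 and 5.33 CPM in the insulin libraries with a median of 2.58 CPM, against 2.97, 16.6 and 1.02 CPM. The 3 genes shared a basal library of dog 3 above every insulin library, and for COL14A1 the basal library of dog 4 was below all of them. COL19A1, another FACIT, was highest in dog 1, with 1.27, 0.662 and 0.663 CPM in its insulin samples 1, 2 and 3, while no library of dogs 2, 3 and 4 exceeded 0.295 CPM. COL20A1 and COL21A1 reached at most 0.531 and 1.56 CPM, both in dog 3 sample 0.

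COL22A1 is a FACIT known from mice and zebrafish as a marker of the junction between muscle and tendon, and its levels did not follow the other collagens. It was at 1.80 CPM (78 counts) in the basal library of dog 4 and at 1.32 CPM (77 counts) in insulin sample 3 of dog 2. Insulin sample 1 and sample 2 of dog 4 had 5 and 3 counts of it. In insulin sample 2 of dog 1 and the basal library of dog 2 it had 0 counts, which allows up to 0.0452 and 0.0471 CPM at 3 counts. High values thus occurred in single libraries of both groups.

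COL8A1, a short-chain network collagen of vessel walls, lay between 1.66 and 5.75 CPM in the insulin libraries with a median of 2.94 CPM, against 2.40, 7.44 and 1.69 CPM in the basal libraries of dogs 2, 3 and 4. COL28A1, found in mice mainly around peripheral nerves, lay between 3.27 and 12.1 CPM in the insulin libraries with a median of 6.74 CPM, against 6.97, 12.4 and 3.86 CPM in those basal libraries. With COL4A4 they had the narrowest spread of the 16 more abundant genes, with SDs of log2(CPM + 0.5) of 0.56 for COL8A1, 0.60 for COL4A4 and 0.61 for COL28A1. COL7A1, which forms the anchoring fibrils of skin, and COL17A1, a transmembrane collagen of skin hemidesmosomes, reached at most 0.337 and 0.321 CPM.

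The remaining 11 collagen genes did not pass the filter and had few counts in the 13 libraries together. Genes of cartilage were among them, with totals of 46 counts for COL9A2, 44 for COL9A1, 26 for COL11A1, 24 for COL9A3 and 11 for COL10A1. COL13A1 and COL25A1, transmembrane collagens with a role in the innervation of muscle in mice, had 31 and 23 counts. COL8A2 had 22 counts, COL23A1 had 21, COL26A1 had 4 and COL6A5 had 1. These genes entered no comparison in the filtered fit, and the fit without the low-count filter, which tested all 42, called none of them. No gene with the symbol COL6A2 or COL18A1 met the rule, so these genes were not analysed here.

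The labels set insulin-stimulated against basal muscle, and no collagen gene passed the test between them. In insulin against basal libraries, edgeR's quasi-likelihood test with the dog as a block called 20 of 14629 genes (0.137%) at an adjusted p under 0.05 and 0 of the 31 collagen genes. Of all genes tested 4 were called higher with insulin (0.0273%) and 16 lower (0.109%). At an unadjusted p under 0.05 there were 603 genes and 0 collagen genes, and DESeq2 called 104 genes and 0 collagen genes. The CPM of insulin and basal libraries overlapped for all 31 collagen genes, while 0.93% of the genes tested had no overlap. Of the 31 collagen genes 10 had a positive and 21 a negative log2 fold change, with a median of -0.32, beside a median of 0.00 over all genes tested.

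The fitted changes of single collagen genes had wide intervals. COL5A2 was at -0.74 on the log2 scale for insulin over basal (standard error (SE) 0.53, 95% interval -1.88 to 0.41, adjusted p = 1 in edgeR). COL1A1 was at -0.83 (SE 0.71, interval -2.37 to 0.71) and COL16A1 at -0.89 (SE 0.76, interval -2.52 to 0.75). COL4A1 was at 0.24 (SE 0.45, interval -0.72 to 1.20) and COL15A1 at 0.29 (SE 0.45, interval -0.68 to 1.26). By class, 9 of the 10 fibrillar genes tested were negative with a median of -0.41, while 4 of the 6 type IV genes were positive with a median of 0.17. The lowest p belonged to COL22A1, at -2.90 on the log2 scale (SE 1.64, adjusted p = 1). Without the low-count filter its adjusted p was 0.0280 for a log2 fold change of -2.91, in a fit that called 140 of 25207 genes (0.555%). Its unadjusted p in edgeR was 0.000143 there and 0.0995 in the filtered fit. Within dogs, insulin minus basal on the log2(CPM + 0.5) scale was 0.97 for COL22A1 in dog 2, -0.80 in dog 3 and -1.99 in dog 4.

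The direction rested on dog 3, whose insulin libraries entered this comparison only through its basal library. Without that basal library the median of the collagen genes was 0.60, and 14 of 15 named collagen genes were positive, against 3 of 15 with all libraries. Without insulin sample 2 of dog 3 the median was 0.03. Without the basal library of dog 4 the median was -0.74 and 13 of 15 were negative. COL1A2, at -0.53 with all libraries (SE 0.68), was at 0.81 without the basal library of dog 3 and at -1.38 without that of dog 4. COL4A4 was the named gene that stayed negative without the basal library of dog 3, at -0.03. It was at -0.45 with all libraries (SE 0.41) and at -0.74 without the basal library of dog 4. COL4A1 and COL15A1 stayed positive, at 0.77 and 0.60 without the basal library of dog 3 and at 0.04 and 0.17 without that of dog 4. No collagen gene passed the threshold in any of these fits.

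**Figure D3:**
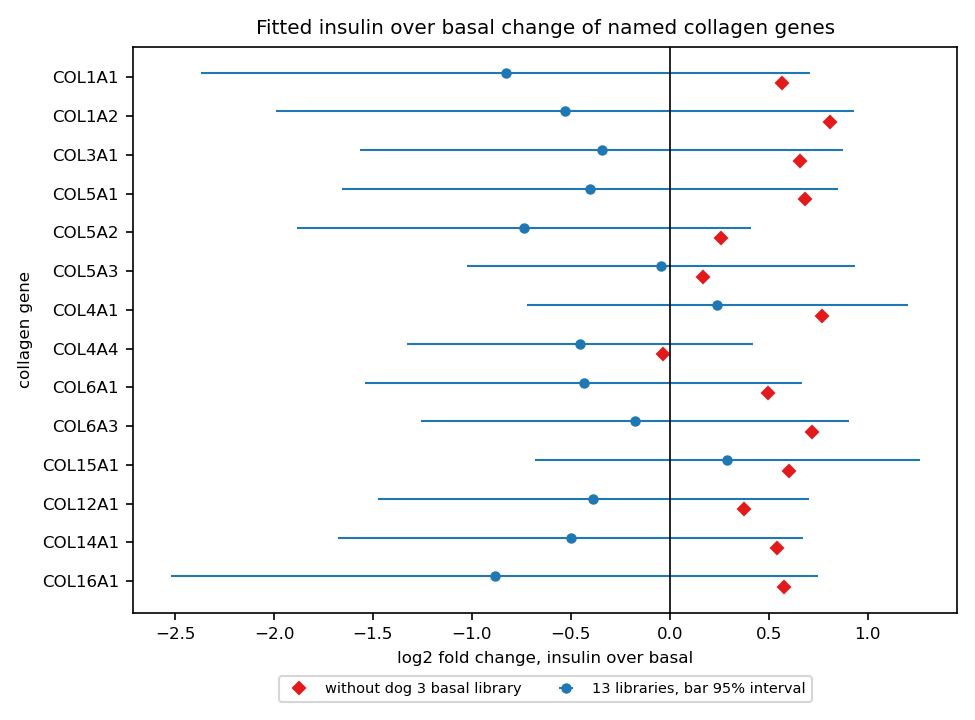
Log2 fold change of insulin over basal (x axis) for 14 collagen genes with a mean of 2 CPM or more that are named by the rule (y axis). Circles with 95% intervals are from all 13 libraries, diamonds leave out the basal library of dog 3, and every interval crosses 0 while the diamonds of all but COL4A4 lie above 0.

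Within dogs the insulin libraries lay on opposite sides of the basal library. The mean log2(CPM + 0.5) of the insulin libraries minus that of the basal library was negative in dog 3 for 16 of the 16 more abundant collagen genes, with a median of -1.80. In dog 4 it was positive for 16 of 16, with a median of 0.85, and in dog 2 it was positive for 7 and negative for 9, with a median of -0.03. Being lower with insulin in dog 3 and higher in dog 4 was found for 22.3% of the 9242 genes at this level and for 26 of the 31 collagen genes tested, beside 27.5% of all genes tested. COL1A2 differed by 0.18 in dog 2, -2.65 in dog 3 and 1.40 in dog 4, and COL6A1 by -0.26, -1.98 and 1.19. A single collagen gene of the 31 (3.23%), COL4A3, had the same direction in dogs 2, 3 and 4, at -0.58, -0.21 and -0.03. Among all genes tested 24.8% had the same direction in these dogs.

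The insulin libraries of a dog did not all stand on the same side of its basal library. In dog 2, 16 of the 16 genes were higher in sample 1 than in the basal library, while 15 were lower in sample 2 and 13 were lower in sample 3. The median ratio to the basal library was 1.84 in sample 1, 0.707 in sample 2 and 0.673 in sample 3. In dog 3, 15 of the 16 were lower in sample 1 and 16 in sample 2, at median ratios of 0.322 and 0.217. In dog 4, 11 were higher in sample 1 and 16 in sample 2, at median ratios of 1.29 and 3.13. Among all 9242 genes at this level, between 45.9% and 55.7% were higher than the basal library in any of these 7 pairs.

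**Figure D4:**
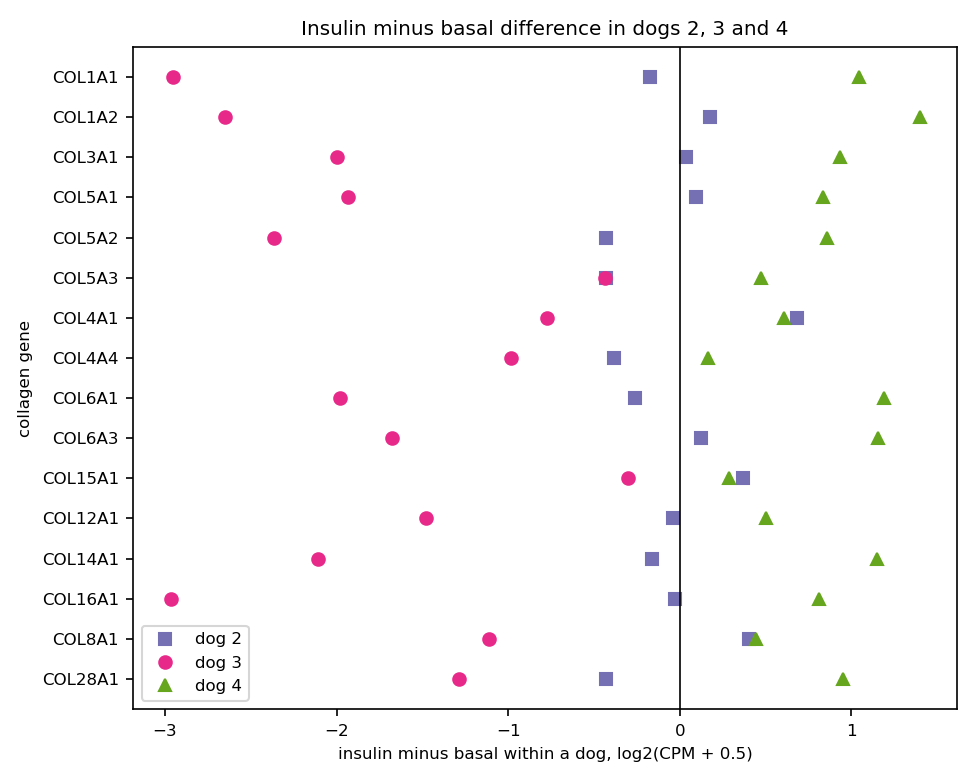
Insulin minus basal difference within dogs 2, 3 and 4 (squares, circles and triangles) on the log2(CPM + 0.5) scale for the 16 collagen genes with a mean of 2 CPM or more. All 16 circles of dog 3 are left of 0 and all 16 triangles of dog 4 are right of it, while the squares of dog 2 scatter around 0.

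Whether the effect of insulin differed between dogs 2, 3 and 4 was tested in an edgeR fit added after these values were seen. It called 4 of 14629 genes (0.0273%) and 0 collagen genes. At an unadjusted p under 0.05 there were 791 genes and 13 of the 31 collagen genes, the lowest being COL1A2 (adjusted p = 0.606), COL14A1 (adjusted p = 0.705) and COL1A1 (adjusted p = 0.721). DESeq2 was not run for this test. Without the low-count filter 328 of 25207 genes (1.3%) were called, 11 of them collagen genes, and COL1A1 had an adjusted p of 5.79e-12. In that fit the spread was taken from all genes alone, and the quasi-dispersion of COL1A1 was 0.759, against 2.97 in the filtered fit. Dogs 2, 3 and 4 each had a single basal library, so this test took its spread from the insulin libraries alone. An effect of insulin that differs between dogs therefore cannot be told apart from a basal library that stands apart. The test was prompted by the pattern in these same genes, so the count of 13 is a description.

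Comparisons by sample number gave no call among the collagen genes either. In sample 1 against sample 0, edgeR called 0 of 14629 genes (0%), with 438 genes and 0 collagen genes at an unadjusted p under 0.05, and DESeq2 called 40 genes and 0 collagen genes. In sample 2 against sample 0, edgeR called 7 genes (0.0479%), 2 of them higher (0.0137%) and 5 lower (0.0342%), and 0 collagen genes, with 724 and 0 at an unadjusted p under 0.05, and DESeq2 called 73 and 0. These comparisons share the basal libraries. The median log2 fold change of the 31 collagen genes was -0.16 for sample 1 over sample 0 and -0.37 for sample 2 over sample 0. Without the basal library of dog 3 the medians were 0.68 and 0.41. The median for sample 1 was also positive without sample 1 of dog 3 (0.24) or of dog 4 (0.06), and that for sample 2 without sample 2 of dog 3 (0.17). The type IV genes had a median of 0.59 in sample 1 over sample 0, with COL4A1 at 0.61 (SE 0.43, adjusted p = 1 in edgeR). COL4A1 was at 1.27 without the basal library of dog 3 (adjusted p = 0.931) and at 0.40 without that of dog 4. In sample 2 over sample 0, 5 of the 6 type IV genes were negative, with a median of -0.57.

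Sample 2 against sample 1 could be compared in all 4 dogs, both under insulin. EdgeR called 0 of 14629 genes (0%), with 495 genes and 1 collagen gene at an unadjusted p under 0.05. DESeq2 called 0 genes. All 6 type IV genes tested were lower in sample 2, with a median log2 fold change of -0.66, beside -0.02 over all genes tested, while the 10 fibrillar genes were split, with 6 positive and 4 negative and a median of 0.07. COL4A2 was the gene at the unadjusted threshold (-0.95, SE 0.38, adjusted p = 0.902). It stood at 0.813 CPM in sample 2 and 2.22 CPM in sample 1 of dog 1, at 1.54 and 3.46 CPM in dog 2, at 1.56 and 3.32 CPM in dog 3, and at 1.55 and 1.66 CPM in dog 4. Sample 2 was thus lower in 4 of 4 dogs, by little in dog 4. COL4A1 was lower in sample 2 in 3 of 4 dogs (-0.64, SE 0.38, adjusted p = 0.902), with dog 4 the exception. Without sample 1 of dog 2 the median of all collagen genes was 0.036, without sample 2 of dog 3 it was 0.02, and without sample 2 of dog 4 it was -1.03, against -0.28 with all libraries.

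Sample 3 against sample 1 rested on dogs 1 and 2 alone. EdgeR called 0 of 14629 genes (0%), with 575 genes and 2 collagen genes at an unadjusted p under 0.05, and DESeq2 called 2 genes and 0 collagen genes. COL4A1 was among the 2 at the unadjusted threshold, at 25.1 CPM in sample 3 and 81.1 CPM in sample 1 of dog 1, and at 23.5 and 64.5 CPM in dog 2 (log2 fold change -1.23, SE 0.49, adjusted p = 0.989). The other was COL22A1, at 0.286 CPM in sample 3 and 0.0303 CPM in sample 1 of dog 1, and at 1.32 and 0.174 CPM in dog 2 (3.48, SE 1.49, adjusted p = 0.989). Of the type IV genes 5 of 6 were negative, with a median of -1.01, and of the fibrillar genes 7 of 10, with a median of -0.11. The median of all 31 was -0.17. It was 0.41 without sample 1 and 0.24 without sample 3 of dog 2, and -0.90 without sample 3 of dog 1.

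Differences between the 4 dogs were tested with the sample number in the model. EdgeR called 458 of 14629 genes (3.13%) and 0 of the 31 collagen genes. At an unadjusted p under 0.05 there were 2275 genes (15.6%) and 5 of the 31 collagen genes, a share near that of all genes. The 5 were COL15A1 (adjusted p = 0.137), COL2A1 (adjusted p = 0.143), COL3A1 (adjusted p = 0.202), COL19A1 (adjusted p = 0.272) and COL1A1 (adjusted p = 0.310). COL15A1 averaged 6.15, 4.04, 10.6 and 2.27 CPM in dogs 1, 2, 3 and 4, and COL3A1 averaged 144, 94.9, 260.0 and 33.0 CPM. Dog 4 thus had the lowest mean of both genes and dog 3 the highest, basal libraries included. Over the insulin libraries alone COL15A1 averaged 9.99 CPM in dog 3, still the highest, while COL3A1 averaged 131 CPM in dog 3, below dog 1 at 144 CPM. DESeq2 called 1329 of 14629 genes (9.08%) and 2 of the 31 collagen genes, no larger a share. These were COL15A1 (adjusted p = 0.00341) and COL2A1 (adjusted p = 0.00463). Without sample 2 of dog 4, edgeR called 295 of 14540 genes (2.03%) and 2 of the 31 collagen genes, COL15A1 (adjusted p = 0.0211) and COL3A1 (adjusted p = 0.0300). Leaving out any other library gave no collagen call between dogs. Without the low-count filter edgeR called 793 of 25207 genes (3.15%) and 1 of the 42 collagen genes, COL2A1 (adjusted p = 0.0458).

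Ratios between fibrillar genes spanned less over the libraries than COL1A1 itself. The ratio of COL1A2 to COL1A1 counts ran from 2.84 to 9.35 in the insulin libraries with a median of 4.91, against 3.49, 3.91 and 6.49 in the basal libraries of dogs 2, 3 and 4, so it spanned 3.30-fold while COL1A1 itself spanned 43.7-fold. The ratio of COL3A1 to COL1A1, genes of different types, spanned 2.72-fold, less than that of the 2 type I chains, and the ratio of COL5A2 to COL5A1 spanned 2.68-fold. The ratio of COL6A1 to COL6A3 ran from 3.48 to 8.17 in the insulin libraries, against 7.61, 7.03 and 5.18 in the basal libraries of dogs 2, 3 and 4, a span of 2.35-fold, while COL6A1 itself spanned 12.8-fold. The ratio of COL4A1 to COL1A1 spanned 15.4-fold, from 0.284 in insulin sample 3 of dog 1 to 4.39 in the basal library of dog 4. In dog 4 it was 4.21 and 2.30 in insulin samples 1 and 2. Transcript lengths cancel out in these comparisons between libraries, and the ratios themselves say nothing on the number of chains.

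Genes that act on collagen were read from 7 lists. No gene of these lists was called by edgeR in insulin against basal or in any comparison of sample numbers. The 16 genes tested of collagen folding and modification, with prolyl hydroxylases, lysyl hydroxylases and chaperones, summed to between 222 and 316 CPM in the insulin libraries, against 276, 285 and 265 CPM in the basal libraries of dogs 2, 3 and 4. This list therefore spanned 1.42-fold over the 13 libraries, and its median log2 fold change was 0.03. Abundant genes such as P4HB, the other chain of prolyl hydroxylase, at 74.1 to 125 CPM, weigh most in this sum. Of the 16 genes 14 were lower with insulin in dog 3, with a median difference of -0.44, while 9 were higher in dog 2 and 9 in dog 4. SERPINH1 and FKBP10, collagen chaperones, had their highest level in the basal library of dog 3, at 4.57 and 7.47 CPM, and their lowest in that of dog 4, at 0.462 and 0.554 CPM. Lists of genes that process, break down or bind collagen fibrils had their highest sums in the basal library of dog 3, as the fibrillar collagens did. So did basement membrane partners (446 CPM), TGF-beta signalling (73.9 CPM) and collagen receptors (120 CPM), the last level with insulin sample 1 of dog 2. Only the folding and modification list had its highest sum elsewhere. Processing and cross-linking genes (12 tested) summed to 17.8 to 40.3 CPM in the insulin libraries, against 30.1, 101 and 17.3 CPM in the basal libraries of dogs 2, 3 and 4, with a median log2 fold change of -0.36. LOX, the enzyme that cross-links collagen, was among the 2 genes of lowest p in that list, at -1.13 (SE 0.60, adjusted p = 1).

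Genes of collagen breakdown (8 tested) summed to 38.5 to 77.5 CPM in the insulin libraries, against 56.2, 217 and 31.8 CPM in the basal libraries of dogs 2, 3 and 4. MMP2, a gelatinase, made up 89.6 CPM of that in the basal library of dog 3 and stayed between 7.92 and 21.3 CPM in the insulin libraries (log2 fold change -0.97, SE 0.60, adjusted p = 1). Fibril-binding matrix genes such as DCN and LUM (12 tested) summed to 346 to 817 CPM in the insulin libraries, against 563, 1895 and 295 CPM in the basal libraries of dogs 2, 3 and 4, and 10 of 12 had a negative log2 fold change. Collagen receptors (7 tested) spanned 1.55-fold and genes of TGF-beta signalling (11 tested) 2.27-fold over the 13 libraries, with median log2 fold changes of 0.06 and 0.20. Basement membrane partners, laminins and nidogens among them (9 tested), were positive for 9 of 9 in sample 1 over sample 0 and negative for 9 of 9 in sample 2 over sample 1, with medians of 0.41 and -0.63. Both comparisons use the sample 1 libraries, with opposite sign. In sample 2 over sample 0, 7 of 9 were negative, with a median of -0.37, and in insulin over basal 5 were positive and 4 negative, with a median of 0.01. Their sum was 106 to 278 CPM in the insulin libraries, against 136, 446 and 141 CPM in the basal libraries of dogs 2, 3 and 4. In the comparison between dogs, edgeR called P4HA3, a prolyl hydroxylase chain (adjusted p = 0.0181), and CCN2, a target of TGF-beta (adjusted p = 0.0390), and no other gene of the 7 lists. Their lists had 16 and 11 genes tested, and edgeR called 3.13% of all genes in that comparison.

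Summed markers of several other cell types differed between libraries beside the collagens, by 7.27-fold for adipocyte, 5.93-fold for macrophage, 5.06-fold for fibroblast, 4.76-fold for endothelium and 4.58-fold for Schwann cell markers. All 9 fibroblast markers were tested, and they summed to 494 to 985 CPM in the insulin libraries with a median of 779 CPM, against 809.8, 2089 and 413 CPM in the basal libraries of dogs 2, 3 and 4. All 9 were lower with insulin in dog 3, with a median difference of -1.64, and all 9 were higher in dog 4, with a median of 0.93. DCN, the fibril-binding proteoglycan decorin, and LUM are in this list and in that of fibril-binding matrix genes, so the sums of these lists are not separate readings. DCN stood at 1151 CPM in the basal library of dog 3 and at 154 CPM in that of dog 4. The 8 endothelium markers summed to 81.8 to 344 CPM in the insulin libraries with a median of 197 CPM, against 106, 389 and 155 CPM in the basal libraries of dogs 2, 3 and 4. In dog 2 they stood at 344, 136 and 199 CPM in insulin samples 1, 2 and 3. In insulin samples 1 and 2 they stood at 178 and 116 CPM in dog 1 and 303 and 207 CPM in dog 3. In dog 4 they were higher in sample 2, at 247 CPM, than in sample 1, at 194 CPM. All 8 were lower in sample 2 than in sample 1 in the fit over 4 dogs, with a median log2 fold change of -0.47. All 8 smooth muscle and pericyte markers were lower too, with a median of -0.66, as were all 6 type IV genes, also at -0.66. The part of these cell types in the collagen differences was not tested.

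**Figure D5:**
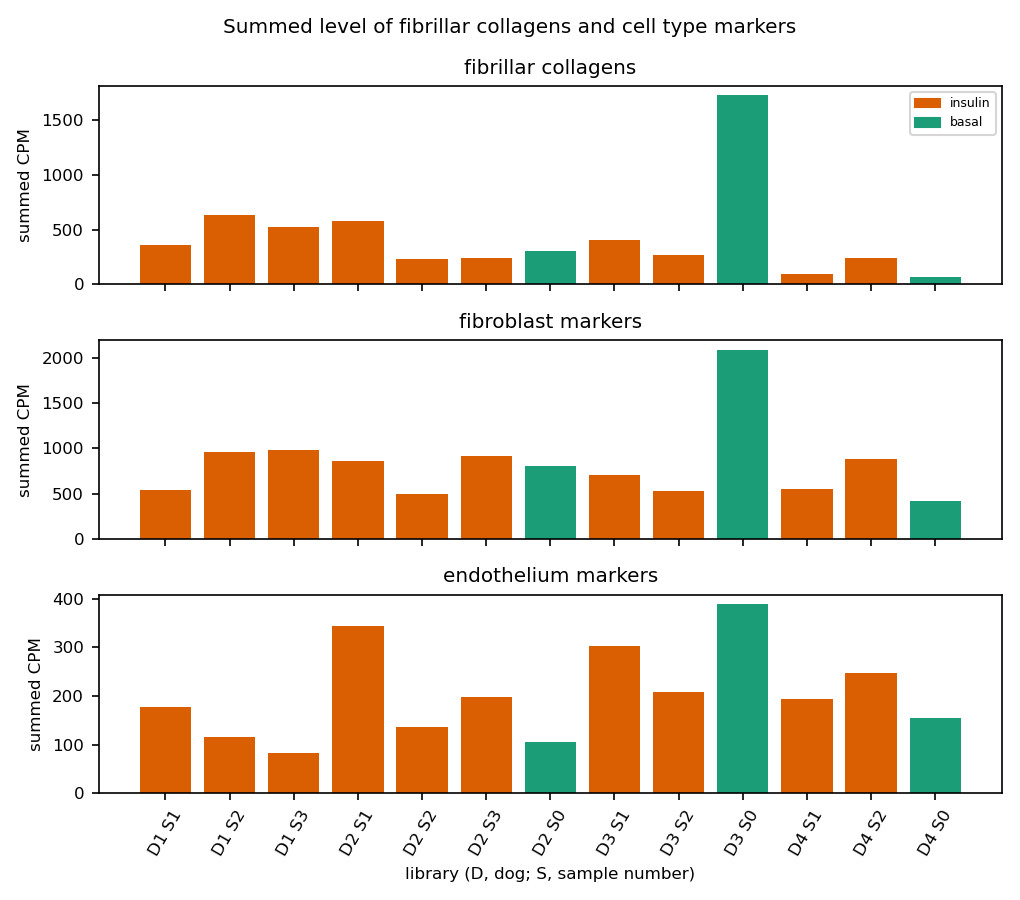
Summed level in CPM (bars from 0) of the fibrillar collagen genes, the 9 fibroblast markers and the 8 endothelium markers in each of the 13 libraries, insulin in orange and basal in green. Dog 3 sample 0 is the highest bar in all 3 panels, at 1722, 2089 and 389 CPM, while the lowest endothelium bar, at 81.8 CPM, is dog 1 sample 3.

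Other marker lists were read in the same way. The muscle fibre markers (9 tested) had their lowest sum, 242363 CPM, in the basal library of dog 3, and ran from 244341 to 414856 CPM in the insulin libraries. The basal library of dog 3 also had the highest sum of the Schwann cell (59.3 CPM), adipocyte (78.3 CPM), neutrophil (74.3 CPM) and macrophage (52.8 CPM) markers, but not of the smooth muscle and pericyte markers, which were highest at 241 CPM in insulin sample 1 of dog 3. SCX and TNMD, defining genes of tendon, stayed at or below 0.186 and 0.300 CPM, with 0 counts in 3 and 7 libraries. The tendon list as a whole (3 tested of 5 in the table) summed to 9.14 to 34.9 CPM in the insulin libraries, against 13.5, 28.7 and 39.4 CPM in the basal libraries of dogs 2, 3 and 4. THBS4 made up most of it, at 7.74 to 36.9 CPM over all libraries, and FMOD reached 8.59 CPM in the basal library of dog 3. CHAD and ACAN, the cartilage markers tested, reached at most 0.393 and 1.27 CPM, each with 0 counts in 4 libraries. Keratinocyte markers summed to 49.4 to 92.0 CPM and red blood cell markers to 34.7 to 50.9 CPM over all libraries. No marker was called by edgeR in insulin against basal or between sample numbers. Between dogs 5 were called, in a comparison that called 3.13% of all genes tested. They were MYH1 and MYH2 of 9 muscle fibre markers tested, S100A12 of 5 neutrophil, MRC1 of 6 macrophage and DSP of 3 keratinocyte markers. The other marker lists had no call.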

How the data were processed

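Total RNA of biceps femoris biopsies gave 13 libraries, made with Takara SMARTseq v4 and Nextera XT kits and sequenced on a NovaSeq instrument, per the labels' protocols. The authors deposited raw counts per gene as whole numbers. They also deposited a normalized signal, the count divided by 1 size factor per library, which served only as a check. Bowtie 0.12.2 and the CanFam3.1 build are named in the submitters' processing notes. How reads were counted, on which annotation and with which strand setting, was not given in the sources used here.

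Tests of the counts used edgeR 4.0.16 in R 4.3.3 (filterByExpr with a minimum count of 10, TMM scaling, robust quasi-likelihood fits, Benjamini-Hochberg adjustment over 14629 genes, threshold 0.05). DESeq2 1.42.0 was an alternative. The dog was a block in each model. Dog 1, with no basal library, entered only the spread of insulin against basal. In the fit by sample number it entered the differences among samples 1 to 3 and the comparison of the dogs. Through the former it also moved the estimates against sample 0. The labels give the dog of each library. Deviations from the group means had a median r of 0.23 between libraries of 1 dog (15 pairs, of which 10 exceeded 0.1) and of -0.08 between dogs (47 pairs). Chi-square per gene between libraries of 1 group or 1 dog was 47.2 or more, so none was counted as a repeat sequencing of another library. This compares the libraries with counting error only, so it cannot tell whether the libraries of a dog came from separate biopsies. The models were run on simulated counts with known changes, drawn independently for each gene with the same spread for all genes. The shared variation of the collagen genes was not simulated, so this does not show how well the tests would find changes in them. SE are the log2 fold change over the square root of F, and within-dog differences used log2(CPM + 0.5).

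The rule named 14 collagen genes whatever their result, of which COL6A2 and COL18A1 had no values. It also named any collagen gene past the threshold and the 3 of lowest p in each comparison with a mean log2 CPM of at least 1. For other lists it named the genes past the threshold or the 2 of lowest p. COL19A1, COL2A1 and COL22A1 and the other collagen genes outside it, and P4HB, SERPINH1, FKBP10 and LUM, were chosen after their values were seen. The collagen genes, gene lists and tests were chosen with earlier results of these data known. RefSeq gene models of the UU_Cfam_GSD_1.0 assembly, matched by symbol for 41 of 42 collagen genes, served only to find neighbouring genes, so no positions or sequences are given.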

Additional observations from a re-analysis of the deposited data

Results flagged for a closer look

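In 4 of 45 groups of 4 to 10 libraries of the named collagen genes (8.89%), a single library was far from the others of its group by Dixon's test. Chance alone gives about 1 in 20 for independent groups of normally distributed values. Here CPM were used without logs, the 10 insulin libraries contain the sample 1 and sample 2 groups, and the genes vary together. The share of 8.89% therefore cannot be set against that rate. COL1A2 in the insulin sample 2 libraries was at 410.0 CPM in dog 1, and the nearest library was at 127 CPM. COL4A2 in the same group was lowest in dog 1, at 0.813 CPM, and the nearest library was at 1.54 CPM. Both values come from dog 1 sample 2, the library with the highest share of ACTA1 (18.4%) and the lowest mean r with the rest (0.959). The part of either in these values was not tested. COL3A1 in the insulin sample 1 libraries was at 17.3 CPM in dog 4, and the nearest library was at 144 CPM. COL4A4 among the 10 insulin libraries was highest in dog 2 sample 1, at 5.57 CPM, and the nearest was at 2.16 CPM.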

How the results depend on the processing

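In the 6 comparisons other than the insulin effect between dogs, 1527 of 1530 recomputed values of the 15 named collagen genes tested stayed on the same side of the threshold, as all their adjusted p in the reported fits missed it. The other 3, for COL15A1 and COL3A1 between dogs, passed it and are given in the comparison of the dogs. In the test of the insulin effect between dogs, 9 of the 15 passed it without the low-count filter. Without the low-count filter edgeR tested 25207 genes, 42 of them collagen genes. It called 140 genes (0.555%) in insulin against basal, with 1 collagen gene, COL22A1. It called 16 in sample 1 against sample 0 and 28 in sample 2 against sample 0. Between dogs it called 793 (3.15%), with 1 collagen gene, COL2A1. In the test of the insulin effect between dogs it called 328 (1.3%), with 11 collagen genes. DESeq2 called 104, 40, 73 and 1329 genes in the first 4 of these (2 collagen genes between dogs) and 2 in sample 3 against sample 1. Size factors of the RLE kind gave 4 genes in sample 1 against sample 0. Counts summed per dog and stimulation gave 3 genes in insulin against basal.

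Without the dog as a block, the pairing of libraries, edgeR called 6 genes in insulin against basal and 0 in sample 2 against sample 0, in both 0 collagen genes, and the median log2 fold change of the collagen genes was -0.45 and -0.74. No other call of the named collagen genes changed without the block.

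Leaving out 1 library at a time gave 7 to 28 genes in insulin against basal, 0 to 8 in sample 1 against sample 0, 0 to 12 in sample 2 against sample 0, 193 to 625 between dogs (0 to 2 collagen genes) and 0 to 10 in the test of the insulin effect between dogs. The median log2 fold change of the collagen genes ran from -0.74 to 0.60 in insulin against basal, from -0.69 to 0.68 in sample 1 against sample 0, from -1.06 to 0.41 in sample 2 against sample 0, from -1.03 to 0.036 in sample 2 against sample 1 and from -0.90 to 0.41 in sample 3 against sample 1. Only 3 basal libraries, 20.4-fold apart in collagen share, were compared, and in the filtered fit low counts kept 11 collagen genes from being tested.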

Other observations

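The ratio of COL4A1 to COL4A2 counts was 36.5, 57.7 and 29.2 in insulin samples 1, 2 and 3 of dog 1. It was 18.6, 15.4 and 15.8 in insulin samples 1, 2 and 3 of dog 2, 17.4 and 18.3 in insulin samples 1 and 2 of dog 3, and 16.8 and 27.6 in those of dog 4. In the basal libraries of dogs 2, 3 and 4 it was 17.5, 15.7 and 19.2. Dog 1 thus had the 3 highest ratios of the 13 libraries. The overlap of these genes and the unmarked strand apply to these counts in all libraries, and their part in the ratio was not tested.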
